A study of Homo sapiens with 31 samples.

Results

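Gene expression was compared between cyclophosphamide-treated tumours of PC3 D4 and PC3 D3, clones of the same cell line that the labels both call resistant to the drug. PC3 is an established human prostate carcinoma line. The comparison used the 4 arrays titled as CPA-treated D4 and the 4 titled as CPA-treated D3, which is 8 of the 31 arrays in the series, and every difference below is D4 minus D3 unless another order is stated. Both clones had been re-isolated after passage in animals, cultured again and implanted as xenografts. When the tumours had reached a mean volume of 30 mm3, cyclophosphamide (CPA) was given at 120 mg/kg intraperitoneally. The other groups drawn on were the 4 arrays each of untreated D4 and untreated D3, of CPA-treated A3, a passaged clone labelled sensitive, and of CPA-treated unpassaged PC3 (wt), also labelled sensitive. Each resistant line is a single clone, so a difference between D4 and D3 is a difference between these clones and not between kinds of resistance. The labels do not say that each array held the tumour of a separate animal. The p-values set each difference against the spread of arrays within groups, and some of that spread may be technical.

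CPA is a prodrug that liver cytochrome P450 enzymes activate, and its end product crosslinks DNA strands and stalls dividing cells. Aldehyde dehydrogenases detoxify an intermediate, glutathione and its transferases bind reactive products, and crosslink repair removes the lesions. Given often and at low dose, the schedule called metronomic, the drug also acts on the vessels of the tumour. Passage in animals and re-isolation as single clones can fix differences between lines that have nothing to do with the drug.

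The values were log2 expression levels of 17314 genes on Affymetrix Human Gene 1.0 ST arrays. Replicate arrays correlated at 0.990 to 0.996 across genes in CPA-treated D3 and at 0.992 to 0.996 in CPA-treated D4. The keratin KRT8 lay between 9.90 and 10.46 in D4 and between 9.82 and 10.09 in D3, and EPCAM between 8.78 and 8.83 in D4 and between 8.49 and 8.65 in D3. The prostate antigen KLK3, which PC3 hardly makes, lay between 5.70 and 6.03 in D4 and between 5.72 and 6.13 in D3. VIM lay between 11.14 and 11.39 in D4 and between 10.91 and 11.25 in D3. The arrays also differed in how dim genes read. With the genes ranked by mean level and divided into 3 equal classes, the dimmest class had a median deviation from the mean of all arrays of -0.08 to -0.029 on the D4 arrays and -0.004 to 0.216 on the D3 arrays, the highest being D3 replicate 5. The median D4 minus D3 difference was -0.136 in the dimmest class, -0.061 in the middle class and 0.075 in the brightest class, and untreated it was 0.077, 0.004 and -0.036. Of the genes called below, 91 rose and 213 fell in the dimmest class, against 397 and 59 in the brightest. The part of this level dependence in the calls was not tested apart from the settings given beside the counts.

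**Figure D1:**
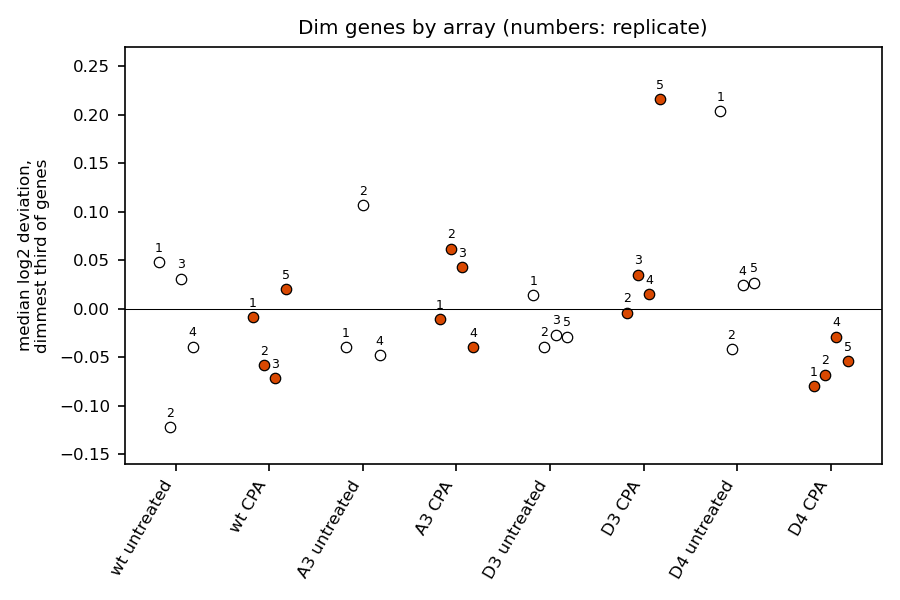
Median log2 deviation from the mean of all 31 arrays over the dimmest of 3 equal classes of genes by mean level, 1 point per array, by line and treatment (filled: CPA-treated, numbers: replicate). D3 CPA replicate 5 lies at 0.216 and the 4 CPA-treated D4 arrays lie between -0.08 and -0.029.

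In CPA-treated tumours, tissue factor, butyrylcholinesterase, a cancer/testis antigen and malic enzyme were among the genes highest in D4 against D3, while a zinc finger gene, endocan and the receptor KDR were among the lowest. In all, 1394 of 17314 genes (8.05%) were called at a Benjamini-Hochberg adjusted p under 0.05 in limma, 789 higher in D4 (4.56%) and 605 lower (3.49%). Most differences were small: 3 called genes were at least 2-fold higher and 4 at least 2-fold lower, and the median absolute log2 difference of the called genes was 0.37. The 4 D4 arrays did not overlap the 4 D3 arrays for 1205 of the 1394, against 3859 of all genes (22.3%). With each array centred on its median, 949 genes were higher and 484 lower. Without D3 replicate 5 the count was 218 (152 higher, 66 lower), and it was 784 without D3 replicate 4, 309, 246 and 494 without D4 replicates 1, 2 and 5, and 71 with the dim-gene deviation of each array as a covariate.

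F3 encodes tissue factor, the membrane protein that starts coagulation. It read 8.74, 8.54, 8.63 and 8.55 on the D4 arrays and 7.46, 7.52, 7.33 and 7.46 on the D3 arrays. The groups were far apart and each was tight, and D4 was 2.25-fold higher (log2 difference 1.17 ± 0.15 SE, adjusted p 3.38e-05). F3 was higher in the same clone without the drug, where D4 lay between 8.35 and 9.27 and D3 between 7.27 and 7.77 (1.52, adjusted p 2.19e-07). Against CPA-treated A3 the level was 1.45 higher in D4 (adjusted p 8.6e-08) and 0.28 higher in D3 (adjusted p 0.39). The call of F3 between the treated clones held under every alternative and each array left out.

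The 250 bases before the F3 start are shown because F3 had the largest called rise and its upstream region holds matches to sites of inducible factors. RefSeq places them at chr1:94541760-94542009 of GRCh38.p14, minus strand. The capitals mark 2 matches to the AP-1 motif TGANTCA, at 223 and 210 bases before the start, and 1 match to the NF-kB motif GGANTTTCC at 187. Both strands were searched, and the motifs do not overlap here.
F3 promoter: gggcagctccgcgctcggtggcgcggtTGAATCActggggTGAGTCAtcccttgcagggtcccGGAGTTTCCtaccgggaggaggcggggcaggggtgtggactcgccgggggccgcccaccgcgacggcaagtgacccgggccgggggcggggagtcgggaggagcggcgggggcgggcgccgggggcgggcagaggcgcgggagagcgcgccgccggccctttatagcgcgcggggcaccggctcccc
Among 35116 such windows of all genes in the table, 6.57% hold the AP-1 motif and 1.45% the NF-kB motif. A match is a stretch of letters and not a measured site.

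Several other genes high in D4 were also high without CPA. MAGEC2, a cancer/testis antigen on chromosome X, read 7.40, 7.25, 6.91 and 7.21 in D4 and 6.30, 5.98, 6.32 and 6.51 in D3, a 1.89-fold difference (0.92 ± 0.12 SE, adjusted p 8.53e-05). The lowest D4 array lay above the highest D3 array, and untreated the gap was 0.69 (adjusted p 0.00414). Against CPA-treated A3, MAGEC2 was lower in D3 (-1.19, adjusted p 2.02e-07), while D4 differed from A3 by -0.28 (adjusted p 0.134). PRSS35, a secreted protein of the serine protease family, read 7.82, 7.88, 7.78 and 8.16 in D4 and 7.12, 7.02, 7.01 and 7.10 in D3. Its groups did not overlap (0.85 ± 0.11 SE, adjusted p 3.41e-05), and the untreated gap was 0.74 (adjusted p 0.000187). CLTRN, collectrin, which helps carry amino acid transporters to the membrane, read 6.15, 6.41, 6.04 and 6.59 in D4 and 5.31, 5.38, 5.73 and 5.38 in D3 (0.85 ± 0.14 SE, adjusted p 0.000778). D3 replicate 4 was the highest D3 array for CLTRN and still lay below every D4 array.

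A second set of leading genes had a gap that was small or of the other sign without CPA. BCHE, butyrylcholinesterase, an esterase of plasma and tissues, read 4.91, 4.99, 4.63 and 4.61 in D4 and 3.93, 3.61, 3.97 and 3.33 in D3 (1.08 ± 0.16 SE, 2.11-fold, adjusted p 0.00021), with an untreated gap of 0.23 (adjusted p 0.626). The groups did not overlap although D3 spread more. ZNF486, a KRAB zinc finger gene, read 7.10, 7.21, 6.82 and 7.31 in D4 and 6.39, 6.24, 6.16 and 6.21 in D3 (0.86 ± 0.13 SE, adjusted p 0.000394), with an untreated gap of 0.02. The test of the difference between the treated and untreated gaps did not call either gene (adjusted p 0.0731 for BCHE and 0.0613 for ZNF486). TAS2R46, a bitter taste receptor, read 4.70, 4.83, 4.68 and 4.55 in D4 and 4.19, 3.52, 3.80 and 3.07 in D3 (1.04 ± 0.26 SE, adjusted p 0.0186), with an untreated gap of -0.41. D3 replicate 5 was its lowest array, and its call was lost without that array. RNY1, a Y RNA, ZNF681 and MIR15B, the gene of a microRNA precursor, differed by 0.86, 0.80 and 0.77, and their calls were also lost without D3 replicate 5. TAS2R46, RNY1 and the zinc finger genes have close relatives in the genome, so their probes may read more than 1 gene. The rest of the 15 highest were SCARNA23 (0.84), ZNF382 (0.82), RAD9B (0.81), a relative of the checkpoint clamp gene RAD9A, SNORA20 (0.80) and ME1, described with its pathway below.

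**Figure D2:**
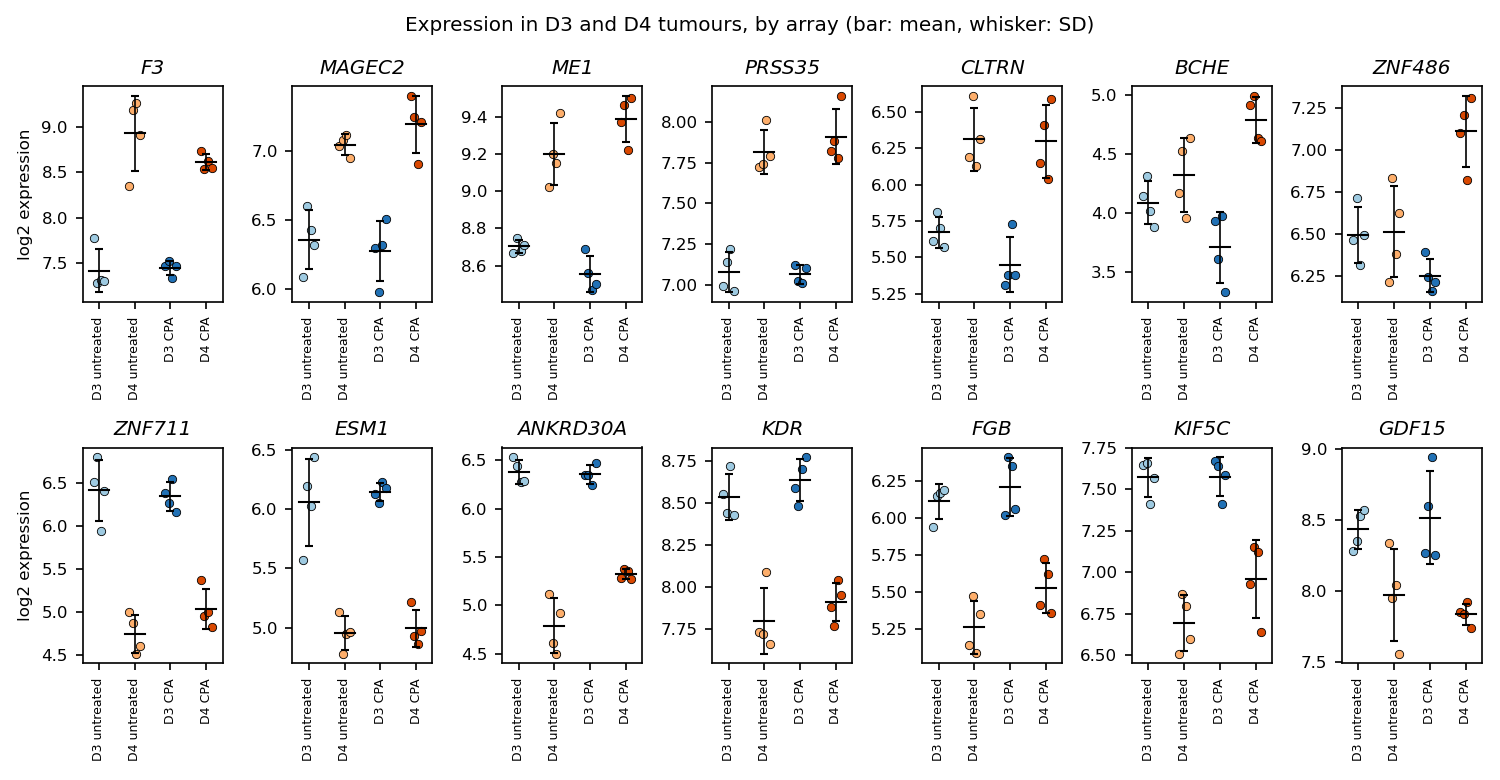
Log2 expression of 14 leading genes on each array of D3 and D4, untreated and CPA-treated (points: arrays, bar: mean, whisker: SD, n = 4 per group). In CPA-treated tumours the D4 and D3 arrays do not overlap for any gene shown, because leading genes were chosen for that. ZNF486 and BCHE overlap between the untreated groups, and F3, MAGEC2, ME1, PRSS35, ZNF711, ANKRD30A and KDR do not.

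The genes lowest in D4 were led by ZNF711, an X-linked zinc finger gene. It read 5.37, 4.96, 5.00 and 4.83 in D4 and 6.39, 6.27, 6.55 and 6.17 in D3, so D3 was 2.47-fold higher (log2 difference -1.31 ± 0.18 SE, adjusted p 0.00015). The groups were apart by more than the width of either, and untreated the gap was -1.67 (adjusted p 2.58e-06). ESM1, endocan, a proteoglycan secreted by vessels and tumour cells, read 5.22, 4.93, 4.86 and 4.97 in D4 and 6.13, 6.05, 6.23 and 6.18 in D3 (-1.15 ± 0.14 SE, adjusted p 1.85e-05), with an untreated gap of -1.11. ANKRD30A, a differentiation antigen of breast epithelium, read 5.28, 5.38, 5.35 and 5.27 in D4 and 6.35, 6.35, 6.24 and 6.47 in D3 (-1.03 ± 0.14 SE, adjusted p 0.000104), with an untreated gap of -1.59. CPA-treated D3 lay above CPA-treated A3 for all 3 genes: by 1.74 for ZNF711 (adjusted p 2.98e-07), 1.25 for ESM1 (5.59e-07) and 1.29 for ANKRD30A (5.79e-07). D4 differed from A3 by 0.43, 0.09 and 0.25 in the same order, none of them called (adjusted p 0.116, 0.664 and 0.233). CALB1, a calcium-binding protein, was 2.00-fold higher in D3 (-1.0 ± 0.24 SE, adjusted p 0.0179), with an untreated gap of -1.04 (adjusted p 0.052).

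KDR, the main receptor for VEGF on vessel cells, read 7.88, 7.77, 8.04 and 7.95 in D4 and 8.59, 8.48, 8.70 and 8.77 in D3 (-0.73 ± 0.13 SE, adjusted p 0.00261), and the untreated gap was the same size (-0.73, adjusted p 0.00354). Probes for human genes can pick up transcripts of the host animal, so the host endothelial list was read beside it. Of its 16 measured genes, KDR, TIE1 (-0.44), EGFL7 (-0.34) and ENG (-0.28) fell and PECAM1 (0.38) rose, and the mean deviation of the list was -0.11 to -0.058 on the D4 arrays and 0 to 0.141 on the D3 arrays. Its median was -0.15 against -0.04 for all genes, of which 3.49% fell and 4.56% rose, and untreated its median was 0.13. Lower calls were 1 without D3 replicate 5 or D4 replicate 1 or 2 and 2 without D3 replicate 4 or D4 replicate 5. In bulk tumours fewer cells of a type and less RNA per cell cannot be told apart, and the part of host RNA in the KDR difference was not tested. Untreated, the list's mean deviation was -0.09 to 0.096 in D4 and -0.106 to -0.005 in D3 while KDR lay between 7.66 and 8.09 in D4 and between 8.43 and 8.72 in D3.

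The other genes low in D4 fell by 0.59 to 0.79. FGB, the beta chain of fibrinogen, read 5.41, 5.72, 5.62 and 5.36 in D4 and 6.02, 6.41, 6.35 and 6.06 in D3 (-0.69 ± 0.11 SE, adjusted p 0.000948). KIF5C, a kinesin motor, read 6.93, 7.15, 7.12 and 6.64 in D4 and 7.67, 7.64, 7.41 and 7.59 in D3 (-0.62 ± 0.10 SE, adjusted p 0.00129). Both had a gap of the same sign and called untreated (-0.85 for FGB and -0.88 for KIF5C). GDF15, a stress-induced cytokine, read 7.85, 7.84, 7.92 and 7.74 in D4 and 8.27, 8.60, 8.94 and 8.25 in D3 (-0.68 ± 0.15 SE, adjusted p 0.009), with an untreated gap of -0.46 (adjusted p 0.229). The rest of the 15 lowest were the cystatin CST1 (-0.79), the Slit receptor ROBO2 (-0.64), S100A2 (-0.62), TSPYL5 (-0.61), the adhesion molecule NCAM2 (-0.60), the olfactory receptor OR8K3 (-0.59) and PARP8 (-0.59). The calls of CST1, S100A2, TSPYL5 and OR8K3 were lost without D3 replicate 5.

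The untreated tumours of the same clones are separate arrays, and they share with the treated comparison only the estimate of the spread. Untreated, 56 genes (0.323%) were called between D4 and D3, 16 higher (0.0924%) and 40 lower (0.231%). Of these, 42 were called the same way with CPA, 13 higher and 29 lower, and 0 the opposite way by limma. With the replicate number as a block and only the arrays compared, 17 genes were called untreated. The 42 make up 75.0% of the untreated calls and 3.01% of the treated calls. By sign alone, 710 of the 1394 genes called with CPA (50.9%) had the same sign untreated, against 38.9% of all genes, and among the 83 called genes that differed at least 1.5-fold 53 did. Across all genes the 2 gaps correlated at -0.232, a description over genes that are not independent and that share the level dependence of their arrays. Without D3 replicate 5, 10 of the 13 and 15 of the 29 were still called with CPA, and with the dim-gene covariate 9 and 13. Without D4 replicates 1, 2 and 5 they were 9 and 16, 9 and 18, and 13 and 17.

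The 42 genes, singled out here after their values were seen, held several membrane and matrix genes. Beside F3, those higher in D4 included the proteoglycan core protein SRGN, which read 9.43, 9.37, 9.32 and 9.35 in D4 and 8.85, 8.46, 8.53 and 8.71 in D3 (0.73 ± 0.10 SE, adjusted p 0.00017) and whose untreated gap was also 0.73. They included the serotonin receptor HTR1E (0.76, untreated 0.60), the ecto-nucleotidase NT5E (0.50, untreated 0.38), the tissue plasminogen activator PLAT (0.34, untreated 0.37), podoplanin PDPN (0.33, untreated 0.41), the mRNA-binding protein IGF2BP1 (0.41, untreated 0.59), DAZAP2 (0.46, untreated 0.47) and DPYSL2 (0.29, untreated 0.35). HTR1E read 6.80, 6.60, 6.92 and 6.55 in D4 and 5.81, 6.03, 5.91 and 6.10 in D3, with no overlap. Those lower in D4 included the hyaluronan synthase HAS2 (-0.52, untreated -0.71), the hyaluronan-degrading protein CEMIP (-0.38, untreated -0.45), the serpin SERPINB7 (-0.54, untreated -0.98), the collagen chain COL12A1 (-0.49, untreated -0.55), the glypican GPC4 (-0.49, untreated -0.47), the glutamate transporter SLC1A3 (-0.45, untreated -0.77) and the chemokine CXCL6 (-0.42, untreated -0.49). CXCL6 read 6.71, 6.81, 6.76 and 6.71 in D4 and 7.21, 7.18, 7.27 and 7.01 in D3, again with no overlap. For 0 of the 42 was the treated gap called different from the untreated gap by limma, where 0.0866% of all genes were called. The 42 were chosen for calls of the same sign in both, so that count cannot tell whether CPA left their gaps unchanged.

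**Figure D3:**
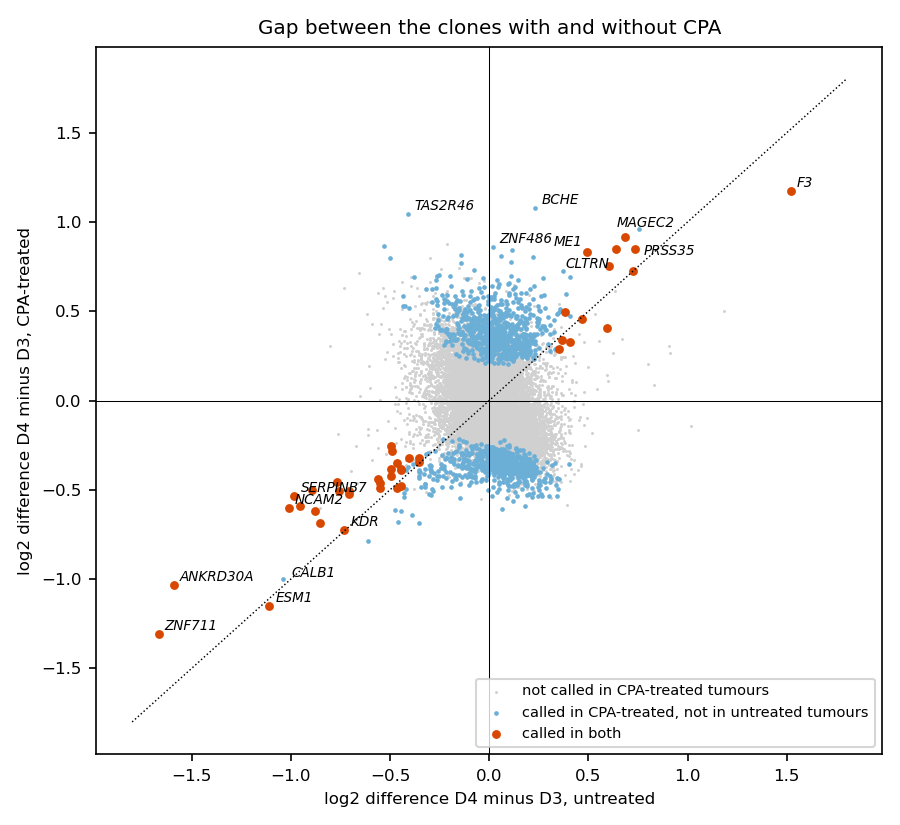
Log2 difference D4 minus D3 of each gene in untreated tumours (x axis) and in CPA-treated tumours (y axis); large orange points are the 42 genes called in both, blue points genes called in CPA-treated but not in untreated tumours, and the dotted line marks equal gaps. F3 lies at 1.52 untreated and 1.17 treated, and ZNF711 at -1.67 and -1.31.

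Whether the gap itself differed between treated and untreated tumours was tested directly, and 15 of 17314 genes (0.0866%) were called, 5 with a higher gap under CPA (0.0289%) and 10 with a lower (0.0578%). ZNF382, a KRAB zinc finger repressor, read 4.97, 5.55, 5.41 and 5.10 in treated D4 and 4.53, 4.42, 4.64 and 4.18 in treated D3, but lay between 4.92 and 5.09 in untreated D4 and between 4.89 and 5.37 in untreated D3. Its gap moved by 0.96 (adjusted p 0.0443), and against its own control it was lower in treated D3 (-0.71, adjusted p 0.00898) while treated D4 differed by 0.25 (adjusted p 0.274). CEP85L, a centrosomal protein gene, read 6.52, 6.62, 6.53 and 6.43 in treated D4 and 5.89, 5.96, 5.94 and 5.87 in treated D3, and its gap moved by 0.70 (adjusted p 0.0443). CEP85L was higher in treated D4 than in its control (0.52, adjusted p 0.00907), and treated D3 differed from its control by -0.18 (adjusted p 0.447).

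CHAC2, an enzyme that breaks down glutathione, had a gap of 0.54 with CPA and -0.20 without. For CYB5R4, a cytochrome b5 reductase, these were 0.41 and -0.27, and for CCDC59 0.48 and -0.62. Among the 10 with a lower gap, IL1R2, the decoy receptor for interleukin 1, read 4.94, 5.37, 5.28 and 5.04 in treated D4 and 5.56, 5.68, 5.46 and 5.89 in treated D3 (-0.49), and untreated the gap was 0.35. NMB, the peptide neuromedin B, had gaps of -0.42 and 0.31, and the cyclin-like gene CCNP of -0.53 and 0.19. These calls depended on single arrays: 0 genes were called by limma without D3 CPA replicate 5, at 3212 genes with an unadjusted p under 0.05, and 1147 without D4 control replicate 2, against 4662 at an unadjusted p under 0.05 with all arrays. With the replicate number as a block 0 were called, at 5062 with an unadjusted p under 0.05, and 1199 with the block and only the arrays compared. Values without each other array are given in the closing section.

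Of 33 measured mitosis genes, 6 rose in treated D4, 0 fell and 27 were not called. Over all genes 4.56% rose and 3.49% fell. The list's median was 0.29 against -0.04 for all genes, and untreated it was -0.03. NDC80, a kinetochore protein that holds microtubules, read 7.58, 7.60, 7.24 and 7.52 in D4 and 6.81, 6.89, 6.86 and 6.76 in D3 (0.66 ± 0.14 SE, adjusted p 0.0107). CDK1, the kinase that drives entry into mitosis, read 9.53, 9.49, 9.31 and 9.73 in D4 and 9.01, 9.12, 8.70 and 8.69 in D3 (0.64 ± 0.18 SE, adjusted p 0.0323). CCNB2, its cyclin partner, read 8.59, 8.56, 8.59 and 8.82 in D4 and 8.30, 8.34, 8.11 and 8.18 in D3 (0.41 ± 0.10 SE, adjusted p 0.0179). None of the 3 overlapped between the clones, as was so for 22.3% of all genes, and their untreated gaps were 0.05, 0.04 and -0.05. NUSAP1, a spindle protein (0.49), the spindle checkpoint kinase TTK (0.69) and its partner BUB1 (0.29) were the other members called, the last 2 named after their values were seen.

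Set against each clone's own untreated tumours, which shares the treated arrays, the mitosis list had a median of -0.43 in D3 with 14 of 33 called and of -0.17 in D4 with 7 called, where over all genes 0.231% and 1.03% were called. For CCNB2 the difference from the clone's own control was -0.78 in D3 (adjusted p 3.54e-05) and -0.32 in D4 (adjusted p 0.0936). The mean deviation of the list lay between -0.04 and 0.152 on the treated D4 arrays and between -0.244 and -0.128 on the treated D3 arrays, and untreated between 0.086 and 0.407 in D4 and between 0.156 and 0.438 in D3. The treated and untreated arrays overlapped in D4 and not in D3. Of 37 DNA replication genes, 5 rose and 0 fell between the treated clones, where 4.56% of all genes rose and 3.49% fell. The list's median was 0.19 and 0.01 untreated. The called members were the origin recognition subunit ORC6 (0.45), the helicase-complex subunits GINS1 (0.40) and GINS3 (0.33), the clamp loader subunit RFC3 (0.35) and the primase subunit PRIM1 (0.36). Of 31 replication-dependent histone genes 0 were called by limma, with 1 at an unadjusted p under 0.05. With the dim-gene covariate 0 mitosis and 0 replication genes were called by limma, with 5 and 6 at an unadjusted p under 0.05. The medians in that setting were 0.16 and 0.098. Without D3 replicate 5 the called mitosis genes were 1 and the replication genes 0, with medians of 0.27 and 0.16. With each of the other arrays left out in turn they were 1 to 12 and 0 to 11: 3 and 0 without D3 replicate 4, 2 and 0 without D4 replicate 1 or 2, 1 and 1 without D4 replicate 5, and 12 and 11 without D4 replicate 4. Mitosis genes were 4 without D3 replicate 2 or 3, and replication genes were 3 and 4.

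The 250 bases before the start of CCNB2, chr15:59104896-59105145 of GRCh38.p14, plus strand, per RefSeq, are shown because promoters of mitotic genes are known for CCAAT boxes placed before a CHR element. The capitals mark 4 matches to CCAAT, at 244, 120, 87 and 54 bases before the start, and 1 to the CHR motif TTTGAA at 29, with both strands searched and no overlap.
CCNB2 promoter: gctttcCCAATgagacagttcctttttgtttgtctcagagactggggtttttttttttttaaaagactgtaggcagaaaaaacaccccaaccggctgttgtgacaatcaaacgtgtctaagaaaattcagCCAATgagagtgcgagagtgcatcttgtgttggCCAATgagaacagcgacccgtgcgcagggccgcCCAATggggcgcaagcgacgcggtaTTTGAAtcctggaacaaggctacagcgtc
The CCAAT letters are in 32.0% and the CHR letters in 13.3% of the 35116 windows.

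Of 22 NRF2-induced genes, 3 rose and 0 fell, where 4.56% of all genes rose and 3.49% fell. The list's median was 0.07 and -0.04 untreated. NRF2 is the factor that turns on antioxidant and glutathione genes. ME1, the cytosolic malic enzyme that makes NADPH, read 9.37, 9.46, 9.22 and 9.50 in D4 and 8.69, 8.56, 8.47 and 8.50 in D3 (0.83 ± 0.09 SE, 1.78-fold, adjusted p 1.39e-06), with no overlap and an untreated gap of 0.49 (adjusted p 0.00235). NQO1, a quinone reductase, read 9.34, 9.22, 9.15 and 9.23 in D4 and 9.03, 8.93, 9.0 and 8.78 in D3 (0.30 ± 0.08 SE, adjusted p 0.022). GCLM, the modifier subunit of glutathione synthesis, read 7.87, 7.88, 7.91 and 8.12 in D4 and 7.70, 7.61, 7.71 and 7.25 in D3 (0.38 ± 0.11 SE, adjusted p 0.0359). D3 replicate 5 was the lowest array for NQO1 and GCLM, and the catalytic subunit GCLC was not called (0.26, adjusted p 0.0626). The count of the 22 called was 1 without D3 replicate 5 or without D4 replicate 1 or 2, and 2 without D3 replicate 3 or D4 replicate 5.

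The promoters of ME1 and GCLM are shown because these called members hold matches to the antioxidant response element (ARE), searched as TGACNNNGC on both strands. That of ME1 lies at chr6:83431052-83431301 and that of GCLM at chr1:93909431-93909680, both on the minus strand of GRCh38.p14 per RefSeq. The capitals mark the ARE match, at 137 bases before the start of ME1, where it overlaps an AP-1 match, and at 34 before the start of GCLM, where it is on the other strand.
ME1 promoter: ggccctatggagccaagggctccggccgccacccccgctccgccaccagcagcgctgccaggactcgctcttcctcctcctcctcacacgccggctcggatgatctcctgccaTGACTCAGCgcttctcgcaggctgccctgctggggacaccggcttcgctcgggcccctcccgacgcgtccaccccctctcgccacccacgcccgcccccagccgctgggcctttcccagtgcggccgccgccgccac
GCLM promoter: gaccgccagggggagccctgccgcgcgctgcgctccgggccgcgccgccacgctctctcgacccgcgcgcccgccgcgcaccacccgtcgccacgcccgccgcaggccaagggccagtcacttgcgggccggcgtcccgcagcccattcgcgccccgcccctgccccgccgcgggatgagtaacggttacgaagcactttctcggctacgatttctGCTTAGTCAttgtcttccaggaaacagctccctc
The ARE letters are in 10.9% of the 35116 windows.

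Genes that handle CPA or its lesions showed few calls. Of 4 genes of the P450 and reductase list 0 were called by limma, with 0 at an unadjusted p under 0.05. Of 19 aldehyde dehydrogenases 0 were called, with 7 at an unadjusted p under 0.05 (3 higher, 4 lower). Of 23 glutathione genes, the transferase MGST1 rose (0.31, adjusted p 0.0475) and GSTO2 fell (-0.31, adjusted p 0.04), and of 11 efflux transporters ABCC11 fell (-0.33, adjusted p 0.039). Over all genes 4.56% rose and 3.49% fell. The glutathione and efflux lists had 0 calls by limma without D3 replicate 5, with 3 and 2 genes at an unadjusted p under 0.05. Of 33 genes of alkylation and crosslink repair 2 rose and 31 were not called, where 4.56% of all genes rose, with a median of 0.17 and -0.07 untreated. DCLRE1A, a nuclease that acts at crosslinks, read 7.11, 7.19, 6.98 and 6.79 in D4 and 6.53, 6.54, 6.56 and 6.28 in D3 (0.54 ± 0.14 SE, adjusted p 0.0199), with no overlap. The recombination gene RAD51C read 8.29, 8.36, 8.31 and 8.52 in D4 and 8.08, 8.06, 7.92 and 7.85 in D3 (0.39 ± 0.09 SE, adjusted p 0.0146). Neither repair call held without D3 replicate 5, and 1 of the 2 was kept without each of D4 replicates 1, 2 and 5. Among 21 p53 target genes the death receptor FAS (0.40) and MDM2 (0.33) rose and GDF15 fell. Higher calls of this list were 0 by limma without D3 replicate 2 or 4 or D4 replicate 1, 2 or 5. In those settings 4 to 8 rose at an unadjusted p under 0.05. There was 1 higher call without D3 replicate 5 and 0 with the dim-gene covariate, with 2 at an unadjusted p under 0.05. The state of p53 was not measured.

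Zinc finger genes of chromosome band 19p12, a cluster of KRAB repressors, had the highest median of all lists. Of 32 measured, 8 rose and 0 fell, where 4.56% of all genes rose and 3.49% fell. The list's median was 0.36, against -0.20 untreated. Beside ZNF486 and ZNF681, ZNF682 read 6.82, 7.25, 6.80 and 6.84 in D4 and 6.34, 6.33, 6.36 and 6.46 in D3 (0.55 ± 0.14 SE, adjusted p 0.0209), and ZNF730 read 7.35, 7.54, 7.08 and 7.59 in D4 and 6.82, 6.83, 6.96 and 6.18 in D3 (0.70 ± 0.19 SE, adjusted p 0.0283). Neither overlapped, and D3 replicate 5 was the lowest array for ZNF730. The list's mean deviation was 0.156 to 0.482 on the treated D4 arrays and -0.137 to 0.165 on the treated D3 arrays. Against its own control the list's median was 0.50 in treated D4 and -0.14 in treated D3. Of 476 genes with a ZNF symbol, 37 rose and 11 fell, with a median of 0.11. Without D3 replicate 5 these were 5 and 3. These genes are near copies of each other, so shared probes may spread 1 change over several. Of the 32, 1 was called without D3 replicate 5, with a median of 0.27, 2, 1 and 3 without D4 replicates 1, 2 and 5, 5 without D3 replicate 4, and 1 with the dim-gene covariate, with a median of 0.15.

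Of 22 metalloproteinases, relatives and inhibitors, 5 rose, 1 fell and 16 were not called, where 4.56% of all genes rose and 3.49% fell. The collagenase MMP1 read 8.84, 9.02, 8.62 and 8.95 in D4 and 8.38, 8.43, 8.19 and 8.31 in D3 (0.53 ± 0.10 SE, adjusted p 0.00419). The stromelysin MMP3 read 6.28, 6.15, 5.73 and 6.38 in D4 and 5.45, 5.58, 5.37 and 5.57 in D3 (0.64 ± 0.13 SE, adjusted p 0.00753), and the collagenase MMP13 read 8.13, 8.05, 8.26 and 8.04 in D4 and 7.47, 7.73, 7.76 and 7.74 in D3 (0.45 ± 0.09 SE, adjusted p 0.00687). None of the 3 overlapped, all lie on chromosome 11, and their untreated gaps were 0.24, 0.23 and 0.25, none called. ADAM9 (0.36) and the sheddase ADAM17 (0.25) rose and the membrane protease MMP15 fell (-0.37). The list's median of 0.05 lay near that of all genes.

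Of 23 collagen chains 4 fell, 0 rose and 19 were not called, with a median of -0.19 and 0 untreated: COL12A1, COL18A1 (-0.40), COL27A1 (-0.37) and COL7A1 (-0.35). COL27A1 read 7.45, 7.47, 7.59 and 7.29 in D4 and 7.82, 7.81, 7.84 and 7.81 in D3 without overlap. Fibronectin, FN1, read 10.61, 10.44, 10.52 and 10.40 in D4 and 11.01, 10.93, 11.20 and 10.94 in D3 (-0.53 ± 0.10 SE, adjusted p 0.00429), and its call was kept under each array left out. Of 27 epithelial genes KRT15 (-0.36), CDH1 (-0.42) and DSP (-0.30) fell, 0 rose and 24 were not called, where 3.49% of all genes fell. By sign 11 of the 27 were positive and 16 negative, and the list's median was -0.10 against -0.04 for all genes. EPCAM, a member not called, lay higher in D4, between 8.78 and 8.83 against 8.49 to 8.65 in D3. The epithelial genes called were 0 without D3 replicate 5 or D4 replicate 2 or 5, and 1 without D3 replicate 3 or 4 or D4 replicate 1. Without D3 replicate 5, or without D4 replicate 1, 2 or 5, 3 metalloproteinase list members were called, all higher. The collagen chains called were 0 without D3 replicate 5 or D4 replicate 1, and 1 without D3 replicate 4 or D4 replicate 2 or 5.

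Interferon-induced genes and cytokines moved in small numbers, where 4.56% of all genes rose and 3.49% fell. Of 37 interferon-induced genes 4 rose and 0 fell: IFIT2 (0.51), HERC5 (0.39), IFIT5 (0.40) and HERC6 (0.48), antiviral effectors. HERC5 read 6.78, 6.74, 6.87 and 6.83 in D4 and 6.56, 6.60, 6.36 and 6.14 in D3, D3 replicate 5 being the lowest. By limma 0 of the list were called without D3 replicate 4 or 5 or D4 replicate 1, 2 or 5, with 6 at an unadjusted p under 0.05 without D3 replicate 5. Of 29 chemokines and inflammatory cytokines 4 fell, CXCL6, IL11 (-0.30), CSF1 (-0.27) and IL24 (-0.29), and NFKBIA, the NF-kB inhibitor, rose (0.40). Lower calls of this list were 0 without D4 replicate 1, 1 without D4 replicate 2 or D3 replicate 5 and 2 without D4 replicate 5, and higher calls were 0 without D3 replicate 3 or 5 or D4 replicate 1 or 2. Of 33 WNT genes 4 fell, WNT7A (-0.44), FZD7 (-0.39), NKD1 (-0.35) and WNT10A (-0.34), and FZD3 rose (0.34). The WNT genes had 1 lower call without D3 replicate 5 or D4 replicate 1 or 2 and 2 without D3 replicate 4, and 0 higher without D4 replicate 2. WNT7A read 7.85, 7.78, 7.86 and 8.02 in D4 and 8.37, 8.23, 8.32 and 8.36 in D3 without overlap. Of 30 TGF-beta and BMP genes, the ligands BMP6 (-0.42) and BMP2 (-0.37) and their target ID3 (-0.42) fell and TGFB2 rose (0.41). Lower calls here were 1 without D3 replicate 5 or D4 replicate 2 or 5 and 2 without D3 replicate 3 or D4 replicate 1, and of the 8 arrays left out in turn TGFB2 kept its call only without D4 replicate 4. Of 31 genes of hypoxia and glycolysis and 17 of sterol synthesis, 0 were called by limma, with 2 and 0 at an unadjusted p under 0.05.

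Growth factor and signalling lists held few calls in either direction, where 4.56% of all genes rose and 3.49% fell. They were not tested as sets. PDGFC, a ligand of platelet-derived growth factor receptors, read 8.10, 8.04, 8.02 and 8.05 in D4 and 7.75, 7.63, 7.72 and 7.51 in D3 (0.40 ± 0.08 SE, adjusted p 0.00787), and it and COL18A1, the source of endostatin, were the called members of 23 angiogenesis factors. Of 25 genes of the EGF family and its feedback, EGF itself (0.45) and the feedback inhibitor SPRY2 (0.32) rose and PHLDA1 fell (-0.21). EGF read 5.64, 5.82, 5.76 and 5.66 in D4 and 5.42, 5.17, 5.08 and 5.43 in D3 without overlap. The 3 called of 20 YAP target genes were F3, NT5E and TGFB2, all higher in D4, and 2 of the list were called without D3 replicate 5. Of 19 Notch genes the target HES4 (-0.43) and the modifier MFNG (-0.35) fell and 0 rose, with a median of -0.20 and 0.04 untreated. By limma 0 Notch genes were called without D3 replicate 5 or D4 replicate 2, with 8 and 6 lower at an unadjusted p under 0.05. With the dim-gene covariate 0 were called by limma, with 2 lower at an unadjusted p under 0.05, and the median was -0.072. Of 20 genes of coagulation and plasminogen activation F3 and PLAT rose and F12 fell (-0.29). PLAT read 11.11, 10.97, 10.84 and 10.98 in D4 and 10.79, 10.39, 10.67 and 10.71 in D3.

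Of 18 cancer/testis antigens MAGEC2 and MAGEA10 (0.33) rose and PAGE1 fell (-0.40). MAGEA10 read 7.16, 7.18, 7.20 and 6.89 in D4 and 6.80, 6.71, 6.77 and 6.82 in D3, and its untreated gap of 0.37 was not called (adjusted p 0.107). Of 11 clade B serpins SERPINB5, known as maspin, rose (0.37) and SERPINB7 fell. Of 16 prostate lineage genes STEAP1 rose (0.53), with D4 between 5.34 and 5.92 and D3 between 4.32 and 5.58, so that the groups overlapped, and SLC45A3 (-0.34) and the TGF-beta target PMEPA1 (-0.42) fell. PSAT1 (0.33), of serine synthesis, and MTHFD2 (0.28), of mitochondrial folate use, were the called members among 30 stress response genes (ATF4-linked and unfolded protein). The lists of this paragraph were not tested as sets, and over all genes 4.56% rose and 3.49% fell. Among 12 metallothionein genes the metal-sensing factor MTF1 rose (0.45) and MT1E fell (-0.43).

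Single calls came from 27 apoptosis regulators (BIRC2, 0.32), 16 neuroendocrine genes (SNAP25, -0.32) and 19 genes of fatty acid synthesis (ME1), and from 16 ribosomal protein genes RPL22 (0.35) rose and RPL19 (-0.37) fell. Over all genes 4.56% rose and 3.49% fell. BIRC2 and RPL22 each lost their call under 10 alternatives and kept it under 10, and SNAP25 lost it under 14 and kept it under 5. RPL19 lost its call under 4 and kept it under 16, and ME1 lost it under 0 and kept it under 20. Lists with 0 calls by limma were integrins (19 genes, 2 at an unadjusted p under 0.05), iron and copper handling (19 and 2), MHC class I presentation (9 and 1), oxidative phosphorylation (26 and 4), stem and progenitor genes (18 and 5) and heat shock genes (11 and 0). Of the markers of host tissue, 0 were called among 18 of fibroblasts, 15 of myeloid cells, 15 of muscle, 12 of adipocytes, 12 of skin and 7 of pericytes and nerve, with 5, 3, 1, 5, 3 and 3 at an unadjusted p under 0.05. Of 8 erythroid markers EPB42 fell (-0.43), a call lost under 9 alternatives and kept under 10. The medians of these host lists lay between -0.01 and -0.19, and that of the dimmest class of genes was -0.136.

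**Figure D4:**
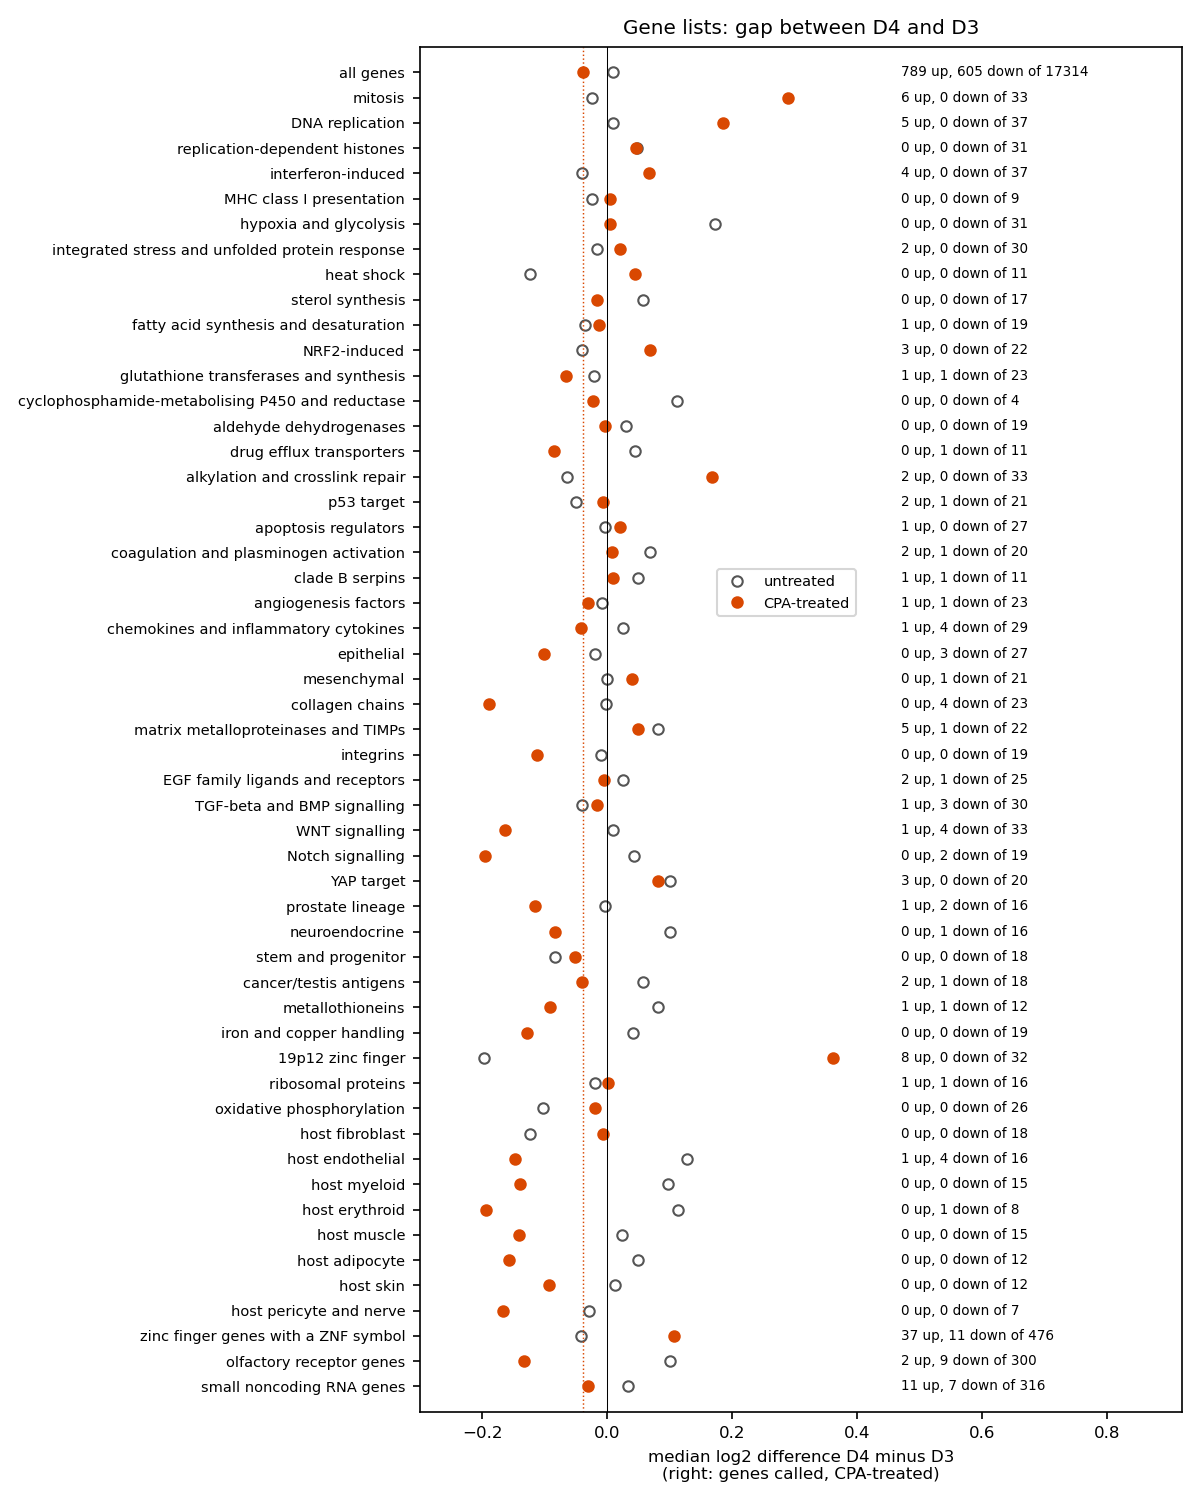
Median log2 difference D4 minus D3 of each gene list in CPA-treated (filled) and untreated (open) tumours, with the counts of genes called in treated tumours at the right; the dotted line is the treated median of all genes. The 19p12 zinc finger list lies at 0.36 treated and -0.20 untreated, and the mitosis list at 0.29 and -0.03.

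Called genes were not spread evenly over the chromosomes. On chromosome 6, 116 of 799 measured genes (14.5%) were higher in treated D4, and 104 of these lay among the 399 genes from BMP5 to the end of the long arm. The start at BMP5 was set after the values were seen, so the stretch is a description with no test. Within it 26.1% of the genes rose and 4 genes fell, with a median of 0.16. Before BMP5, 12 of 400 rose and 14 fell, with a median of -0.01, and on all other chromosomes 673 of 16515 rose (4.08%), with a median of -0.04. The genome was also divided into 344 blocks of 50 neighbouring measured genes. The 8 blocks from BMP5 on held 6 to 19 genes called higher, where the median block held 1, and 7 of the 10 blocks with the most such genes were among them. The block from BCKDHB to MANEA held 19 and had the highest median of all blocks, 0.27.

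Over the 399 genes the array medians were 0.102 to 0.187 in treated D4 and -0.03 to -0.007 in treated D3, against -0.123 to -0.038 in treated A3 and -0.052 to -0.014 in treated wt. Untreated D4 lay between 0.023 and 0.126 and untreated D3 between -0.027 and 0.06, so the untreated clones overlapped. The median difference of the stretch untreated was 0.05 and of all other chromosomes 0.01, and 74 of the 104 genes were positive untreated. Against CPA-treated A3 the stretch's median was 0.24 in D4 and 0.06 in D3, and against wt it was 0.16 and 0.04, in comparisons that share the treated arrays. It stayed between 0.155 and 0.178 with each of the 8 arrays left out in turn, while the 104 genes called higher became 25 without D3 replicate 5, 62 without D3 replicate 4, and 37, 29 and 47 without D4 replicates 1, 2 and 5. With the dim-gene covariate the stretch's D4 minus D3 median was 0.12, and 7 of the 399 genes were called higher. The median was 0.28 without the dimmest 30% of genes. DNA copy number was not measured.

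**Figure D5:**
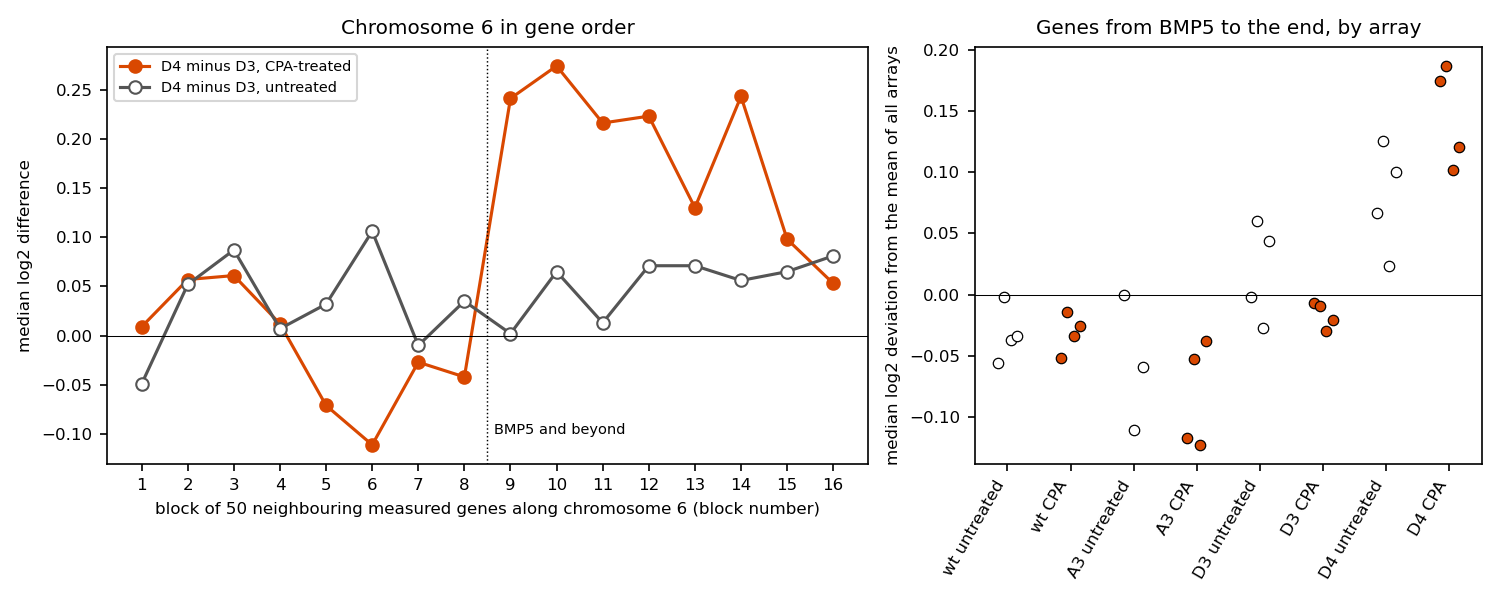
Left, median log2 difference D4 minus D3 in blocks of 50 neighbouring measured genes along chromosome 6, CPA-treated (filled) and untreated (open). Right, median log2 deviation from the mean of all arrays over the genes from BMP5 on, 1 point per array, where the treated D4 arrays lie between 0.102 and 0.187 and the treated D3 arrays between -0.03 and -0.007.

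Genes of that stretch include ME1, PRSS35, NT5E, HTR1E and TTK. Next to NT5E, the genes SNX14 (0.47), SYNCRIP (0.36), SNORD50A (0.47), SNORD50B (0.77) and HTR1E formed an unbroken run of 6 called neighbours. Another run held among 8 neighbours ADGRG6 (0.50), AIG1 (0.41), the peroxisome gene PEX3 (0.57), FUCA2 (0.26) and LTV1 (0.46), and a run of 5 neighbours KIAA1586 (0.54), BAG2 (0.29), RAB23 (0.48) and the primase subunit PRIM2 (0.51). PEX3 read 8.48, 8.37, 8.15 and 8.45 in D4 and 7.87, 7.92, 7.78 and 7.62 in D3 without overlap (adjusted p 0.00419, untreated gap 0.06). Over the genome there were 14 runs of at least 4 called neighbours, where single uncalled genes of the same sign could stand between them, 12 higher and 2 lower, of which 5 lay on chromosome 6. Elsewhere, C16orf87 (0.55), DNAJA2 (0.39), NETO2 (0.32), ITFG1 (0.43) and PHKB (0.34) formed a run on chromosome 16, and NQO1 lay in another run there with NIP7 (0.35), TMED6 (0.39), CYB5B (0.30) and WWP2 (0.30). The tumour suppressor RB1 (0.51) lay in a run on chromosome 13 with SUCLA2 (0.35), MED4 (0.46) and RCBTB2 (0.27), and RB1 read 8.92, 8.94, 8.80 and 8.91 in D4 and 8.47, 8.58, 8.30 and 8.18 in D3. The runs rest on the calls with all arrays, 1394 genes against 218 without D3 replicate 5, and were not redrawn under the alternatives. RB1, SUCLA2 and SYNCRIP each lost their call under 11 alternatives and kept it under 9. PEX3 lost its call under 2 and kept it under 18.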

How the data were processed

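The deposited table held log2 expression values of 23989 probe sets on 31 Affymetrix Human Gene 1.0 ST arrays of total RNA. The submitters' processing notes name RMA as the authors' method, which subtracts background, equalises the distributions of the arrays and reports 1 value per probe set, and can compress differences. No software version or detection call was given. By the platform annotation 17624 probe sets carried 1 gene symbol, 411 several and 5954 none. Those with 1 symbol were used, with the brightest set for each of 276 genes that had several. This left 17314 genes, of which 17290 matched RefSeq (GRCh38.p14) by Entrez number for names and gene order. Promoter windows came from RefSeq of the same build.

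In R 4.3.3, limma 3.58.1 (lmFit, eBayes) was applied once to the 31 arrays with 8 group means, leaving 23 residual degrees of freedom. Genes were called at a Benjamini-Hochberg adjusted p under 0.05 over all genes. The procedure was tested on simulated data with independent noise for each gene and array. Those data held no level dependence of arrays, so that test does not cover it. Precision is limited by the number of arrays, and the median residual SD was 0.148.

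The named genes were the 15 highest and 15 lowest called differences whose arrays did not overlap, up to 4 members of each of 49 lists with the smallest p, for the difference of the gaps the 5 smallest p in each direction, and members of runs of at least 4 called neighbours. Further list members were named after their values were seen. The members and lists were chosen with earlier results of these data known. Alternatives changed the arrays fitted, the normalization, the filter on dim genes, the variance model and the arrays left out. The labels do not say what a shared replicate number marks. Same-numbered D3 and D4 arrays correlated in their deviations at 0.106, 0.184 and 0.072 in CPA-treated and at 0.321, 0.425 and 0.214 in untreated tumours. Differently numbered arrays correlated at -0.279 to 0.221 in CPA-treated and at -0.381 to 0.53 in untreated tumours. The highest of these was D3 replicate 3 with D4 replicate 4, untreated. With 0.1 as the limit, every same-numbered untreated pair passed and not every treated pair. Since differently numbered untreated arrays reached a higher value, these correlations do not show that the numbers pair the arrays.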

Additional observations from a re-analysis of the deposited data

Results flagged for a closer look

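Some genes had a gap between D4 and D3 that differed between CPA-treated and untreated tumours by the test of that difference. The treated gap was higher than the untreated by 1.10 for CCDC59, 0.96 for ZNF382, 0.75 for CHAC2, 0.70 for CEP85L and 0.68 for CYB5R4. It was lower for IL1R2 (-0.84), ZNF69 (-0.81), LINC01260 (-0.76), NPPC (-0.76), OBP2A (-0.75), NMB (-0.73), CCNP (-0.72), CLEC12A-AS1 (-0.68), TEX36 (-0.62) and ZNF516-DT (-0.58). CEP85L and CYB5R4 lie on chromosome 6.

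Single arrays stood apart from the other 3 of their group for a pair of the leading genes: the highest treated D3 array for CLTRN, at 5.73, and the highest treated D4 array for SNORA20, at 7.54, where the 4 arrays lay between 7.50 and 7.54. Chance flags about 1 in 20 groups of arrays in this way.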

How the results depend on the processing

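The gap between the treated clones gave 1394 called genes (789 higher, 605 lower). Fitting only the arrays compared gave 2634 (1514 and 1120), array weights 4723 (2451 and 2272), cyclic loess normalization 961 with 369 lower, and the dim-gene deviation as a covariate 71 (37 and 34), the last 2 settings chosen after seeing the data. Untreated, 56 genes (16 and 40) became 22 (6 and 16) with only the arrays compared and 106 (25 and 81) with array weights, and 25 were higher after a further quantile normalization and 33 with the covariate. The difference of the gaps, 15 genes (5 and 10), became 4 (2 and 2) with only the arrays compared, 776 (278 and 498) with array weights and 1 (0 and 1) with median centring. It was 0 (0 and 0) by limma with quantile normalization, cyclic loess and the covariate, at 3518, 3373 and 568 genes with an unadjusted p under 0.05, and 6 were lower without the dimmest 30% of genes. The median of the chromosome 6 stretch was 0.281 without the dimmest 30% of genes and 0.155 to 0.178 with each array left out.

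Leaving out 1 array at a time gave 218 to 1894 genes for the treated clones (148 to 1116 higher, 66 to 778 lower), 35 to 63 for the untreated (10 to 17 higher, 23 to 46 lower) and 0 to 1147 for the difference of the gaps (0 to 409 higher, 0 to 738 lower). Without D3 control replicate 2 the untreated count was 35 and without replicate 5 it was 37. The count for the difference of the gaps was 177 without D3 control replicate 1, 1147 without D4 control replicate 2, 6 without D3 CPA replicate 2 and 0 or 1 without any other of these arrays.

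Same-numbered arrays all correlated above 0.1 untreated and not all did treated, but differently numbered untreated arrays reached 0.53. Whether the numbers pair the arrays is therefore not known. With the replicate block 1286 treated genes were called, 65 untreated and 0 (0 and 0) for the difference of the gaps, at 5062 with an unadjusted p under 0.05. The replicate block with only the arrays compared gave 10 (5 and 5), 17 (3 and 14) and 1199 (350 and 849).

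Of the values of single named genes under the alternatives, 2843 kept their side of the threshold, 1325 lost it, 8 gained it and 0 changed sign. Of the 30 leading genes 22 kept their call without D3 CPA replicate 5, 23 without D4 CPA replicate 2 and 16 with the covariate.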

Other observations

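Of 300 measured olfactory receptor genes, which are rarely expressed in carcinoma cells, 2 rose and 9 fell in treated D4, where 3.49% of all genes fell. Their median was -0.133, beside -0.136 for the dimmest of 3 equal classes of all genes, and 0.10 untreated. Their mean deviation was -0.092 to -0.042 on the treated D4 arrays and -0.023 to 0.269 on the treated D3 arrays. Of 316 small noncoding RNA genes 11 rose and 7 fell, with a median of -0.03. On chromosome 19 as a whole 30 of 1252 genes rose and 73 fell, with a median of -0.13, whereas the 19p12 zinc finger genes had a median of 0.36.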
